A study of Homo sapiens with 12 samples.

Results

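Accessible chromatin was described at 10 genes of the TEAD and YAP pathway, TEAD1, TEAD2, TEAD3, TEAD4, YAP1, WWTR1, ANKRD1, AMOTL2, LATS2 and AJUBA, in 9 ATAC-seq peak lists of U2OS cells, a human osteosarcoma cell line. These are 10 of 19974 protein-coding genes on chromosomes 1 to 22 and X. A peak or merged region belonged to a gene if it overlapped the gene body or the 50 kb on either side of it (GRCh38). The 10 loci held 187 of the 276021 regions of the FOXA2 set, 83 of the 102872 regions of the SOX2 set, and 201 of 311447 when the peaks of all 9 lists were merged.

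TEAD proteins are DNA-binding factors that bind the coactivators YAP1 and WWTR1 (TAZ) at enhancers and promoters. The kinases LATS1 and LATS2 phosphorylate both coactivators and keep them out of the nucleus, and angiomotin family proteins such as AMOTL2 bind and hold them at cell junctions and in the cytoplasm. AJUBA, a LIM domain protein, binds LATS kinases and restrains them, while ANKRD1 and AMOTL2 are widely used transcriptional targets of YAP and TEAD.

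ATAC-seq marks open chromatin by transposase insertion. The FOXA2 set had 2 libraries labelled wild type, 2 with Tet-on, Flag-tagged full-length FOXA2 and 2 with Tet-on FOXA2 lacking its C-terminal domain (CTD), each with its own peak list. In the SOX2 set there was 1 list for each group of 2 samples, namely a wild type whose title also names the SOX2 cell line, Tet-on SOX2, and Tet-on SOX2 fused to the FOXA2 CTD. Construct cells had received doxycycline at 500 ng/ml for 4 days, and the labels leave it unclear whether either wild type received it or whether a line is 1 clone.

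The lists differed in length and in calling, and the counts below move with this. The FOXA2-set lists held from 19862 peaks (labelled wild type, replicate 1) to 161136 (full length, replicate 1), and the SOX2-set lists from 48142 (wild type) to 75544 (fusion) passing a global irreproducible discovery rate (IDR) of 0.05. Mitochondrial peaks were missing from 2 lists of the FOXA2 set, the second of the pair labelled wild type and the second with full-length FOXA2, whose lowest −log10 p values were 5.43 and 5.22. Elsewhere in this set the lowest −log10 p was 3.44 for wild type replicate 1. It was 2.01 for the first full-length list and for each list of the CTD deletion. A peak weaker than the lowest value of a list cannot appear in it, which bears on the gained and lost counts below. These features were read from the lists, and no label names them. The FOXA2 gene itself carried a peak in every list of both sets. Its strongest peak had a fold enrichment of 5.19 and 14.7 in the libraries labelled wild type. With full-length FOXA2 it was 5.76 and 44.3, and with the CTD deletion 6.94 and 7.07. The SOX2 gene had a peak in every list but wild type replicate 2. The libraries labelled wild type are named by their label throughout. A peak's percentile below is the share of its own list that it equals or exceeds by −log10 p, and read depth is unknown. Each SOX2-set list gives −log10 p for 2 inputs. At the 10 loci the value used was the lower of the 2, so it describes the weaker input. Of the bone markers with a start site in the table used, SPARC had a promoter peak in 9 lists, RUNX2 in 7 and BGLAP in 2, while ALPL and IBSP had none. Of the neural markers, TUBB3 had one in 8 lists, NES in 3, PAX6 in 2 and SOX1 in none. The hepatic genes ALB and AFP and the blood gene PTPRC had none, and the epithelial gene KRT8 had one in 9 lists.

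The promoter windows of 5 genes are shown because they span the range seen at the 10 genes. Each runs from 250 bases before to 50 after a start site and is taken from RefSeq (GRCh38.p14), 5′ to 3′ on the gene's strand. The windows are ANKRD1 at chr10:90921038-90921337 (minus strand), AMOTL2 at chr3:134374398-134374697 (minus), YAP1 at chr11:102110197-102110496 (plus), LATS2 at chr13:21061537-21061836 (minus) and TEAD3 at chr6:35497030-35497329 (minus). Capitals mark matches on either strand to the TEAD core motif GGAATG and to the AP-1 core motif TGANTCA.
ANKRD1: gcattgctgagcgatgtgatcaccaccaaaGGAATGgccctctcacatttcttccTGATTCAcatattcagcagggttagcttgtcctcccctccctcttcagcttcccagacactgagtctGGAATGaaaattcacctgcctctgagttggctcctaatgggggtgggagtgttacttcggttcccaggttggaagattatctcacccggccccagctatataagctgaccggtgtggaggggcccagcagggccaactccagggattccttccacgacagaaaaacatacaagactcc
AMOTL2: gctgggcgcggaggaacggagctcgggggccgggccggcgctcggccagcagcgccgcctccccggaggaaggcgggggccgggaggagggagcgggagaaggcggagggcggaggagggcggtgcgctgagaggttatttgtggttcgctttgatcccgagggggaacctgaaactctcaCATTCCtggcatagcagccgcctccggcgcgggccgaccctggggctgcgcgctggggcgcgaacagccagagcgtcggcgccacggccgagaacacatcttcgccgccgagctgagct
YAP1: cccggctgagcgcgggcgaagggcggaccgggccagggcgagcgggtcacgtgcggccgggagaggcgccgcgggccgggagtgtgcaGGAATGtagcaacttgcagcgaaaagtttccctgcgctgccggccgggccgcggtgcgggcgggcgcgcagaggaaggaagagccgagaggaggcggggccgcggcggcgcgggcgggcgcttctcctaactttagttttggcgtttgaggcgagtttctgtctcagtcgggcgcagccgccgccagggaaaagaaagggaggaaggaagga
LATS2: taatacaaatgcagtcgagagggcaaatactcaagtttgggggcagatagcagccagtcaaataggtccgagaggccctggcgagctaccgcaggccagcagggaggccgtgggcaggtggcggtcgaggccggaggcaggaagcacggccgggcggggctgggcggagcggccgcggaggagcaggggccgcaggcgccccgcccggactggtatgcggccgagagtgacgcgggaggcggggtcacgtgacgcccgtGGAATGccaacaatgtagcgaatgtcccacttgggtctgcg
TEAD3: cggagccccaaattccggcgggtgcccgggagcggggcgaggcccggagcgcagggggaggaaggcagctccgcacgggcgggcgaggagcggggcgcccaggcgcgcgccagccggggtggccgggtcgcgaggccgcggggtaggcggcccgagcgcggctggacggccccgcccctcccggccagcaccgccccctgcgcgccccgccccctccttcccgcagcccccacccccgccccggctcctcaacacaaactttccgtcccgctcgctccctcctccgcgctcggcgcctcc

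The table gave 12 promoter windows for 8 of the 10 genes, TEAD1 and TEAD4 being the others. GGAATG was found in 5 of the 12, against 12.2% of 22156 protein-coding promoters. ANKRD1 carried it at −220 and −128 from its start site, with an AP-1 core at −195 between them. AMOTL2 had it at −69 of the start site at chr3:134374447, YAP1 at −162, LATS2 at +10 and AJUBA at −59 of an inner start site. TGANTCA was in 1 of the 12 (6.16% of all promoters), the forkhead core TGTTTNC in 1 of the 12 (15.3%) and the SOX core ACAANG in 6 of the 12 (30.8%). The only forkhead match lay at −53 of an upstream WWTR1 start site, chr3:149703273. TEAD3, with none of the 4 motifs, had a GC content of 81.3%, higher than in 97.9% of promoters, and ANKRD1 had 52.7%. No match of a motif overlapped a match of another, and a match describes letters only.

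Peaks within 1 kb of a start site were counted as promoter peaks. Of the 10 genes, 4 and 5 had such a peak in the lists labelled wild type replicate 1 and replicate 2, and 8 had it in each of the other 7 lists. Among all 15815 protein-coding genes with a start site the shares were 39.4% and 37.6% in the lists labelled wild type, 67.5% and 59.2% with full-length FOXA2, 53.0% and 67.7% with the CTD deletion, and 58.9%, 61.4% and 56.3% in the wild type, SOX2 and fusion lists of the SOX2 set. TEAD4, WWTR1 and ANKRD1 had a promoter peak in all 9 lists, as did 24.0% of all genes. TEAD3 had it in none, as did 23.0% of all genes. At equal numbers of peaks per list, 1 of the 10 genes kept a promoter peak in all 9.

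**Figure D1:**
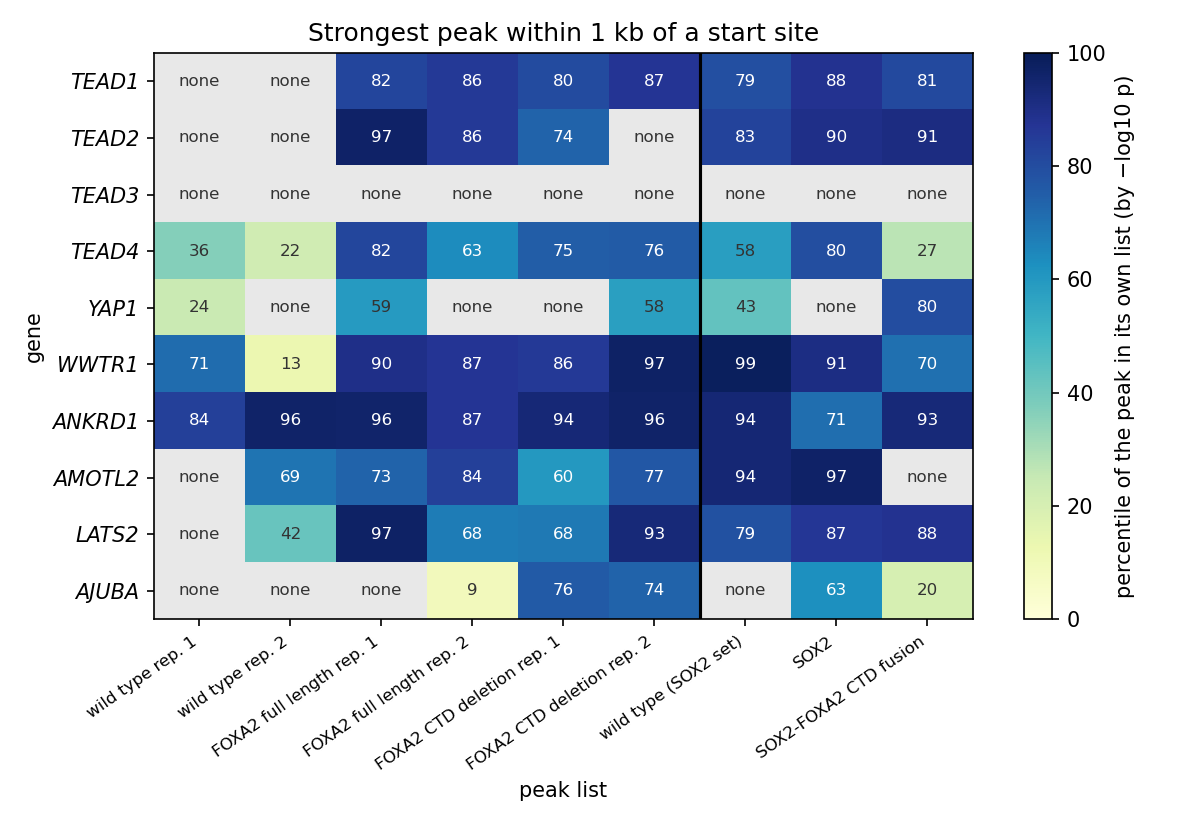
Percentile, within its own list, of the strongest peak within 1 kb of a start site, for 10 genes (rows) in 9 lists (columns; the line parts the FOXA2 set from the SOX2 set; none, no peak). TEAD4, WWTR1 and ANKRD1 are filled in all 9 columns, TEAD3 in none, and TEAD1 in all but the 2 columns labelled wild type of the FOXA2 set.

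Of the 4 DNA-binding factors, TEAD1 had a promoter peak in all lists but those of the libraries labelled wild type. Its promoter region, chr11:12673796-12674916, had no peak in either of them. With full-length FOXA2 the peak had fold enrichments of 4.27 and 10.2 (percentiles 82.4 and 85.6), and with the CTD deletion 4.74 and 4.84 (80.1 and 87.4). Its −log10 p was 21.1 in the wild type of the SOX2 set, 25.6 with SOX2 and 15.5 with the fusion, at percentiles 79.1, 88.2 and 81.0. The region therefore counted as gained with both FOXA2 constructs, whereas the other wild type had a peak of similar rank. Genes with this pattern, a promoter peak in the wild type of the SOX2 set but in neither labelled wild type of the FOXA2 set, made up 17.1% of all genes.

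TEAD2 had a peak upstream of its 5′ end, in the neighbouring gene DKKL1, in every list (region chr19:49363011-49364330). It reached to within 1 kb of the TEAD2 start in 6 lists, and lay 1.14, 1.16 and 1.08 kb from it in wild type replicates 1 and 2 and CTD deletion replicate 2. In these last lists it lay within 1 kb of a DKKL1 start site and counted as a promoter peak of DKKL1, not of TEAD2. Percentiles were 17.4 and 41.8 in the lists labelled wild type, 96.8 and 85.6 with full-length FOXA2, 73.7 and 92.7 with the CTD deletion, and 82.7, 89.7 and 91.3 in the SOX2 set. The libraries labelled wild type thus had the lowest percentiles of the 9, but their lists were the shortest, and a percentile depends on list length. The −log10 p of this peak was 5.61 and 10.5 in them, 10.3 and 24.6 with full-length FOXA2, and 6.54 and 9.01 with the CTD deletion.

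TEAD4 had a promoter peak in all lists, of 4.39-fold and 4.99-fold enrichment in the libraries labelled wild type, 3.76 and 7.50 with full-length FOXA2, and 3.92 and 3.82 with the CTD deletion. In the SOX2 set its −log10 p was 14.2, 20.1 and 7.47 for wild type, SOX2 and fusion. The nearest TEAD3 peaks lay 154.7 and 81.5 kb from its start in the lists labelled wild type, 26.0 and 28.4 kb with full-length FOXA2, 47.2 and 1.04 kb with the CTD deletion, and from 25.8 to 28.2 kb in the SOX2 set. At the TEAD3 start the SOX2-set lists held only entries that failed, at IDR values of 0.0838, 0.168 and 0.511 for wild type, SOX2 and fusion. TEAD4 was thus called at its start in every list and TEAD3 in no list.

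The coactivators differed from each other. WWTR1 had a promoter peak in 9 lists, with fold enrichments of 5.64 and 4.68 in the libraries labelled wild type, 4.64 and 10.6 with full-length FOXA2, and 4.85 and 6.13 with the CTD deletion. In the SOX2 set its −log10 p was 45.8 in wild type, 28.1 with SOX2 and 12.8 with the fusion, at percentiles 98.5, 90.7 and 70.4. The 2 inputs were 45.8 and 45.8 in wild type, 41.4 and 28.1 with SOX2, and 12.8 and 22.5 with the fusion. YAP1 had a peak within 1 kb in 5 lists only, at percentiles 24.0 (wild type replicate 1), 59.3 (full length replicate 1), 57.5 (CTD deletion replicate 2), 43.3 (wild type of the SOX2 set) and 80.0 (fusion). A peak just past that window, at chr11:102111772-102112470 in the gene, was called in all 4 FOXA2-construct libraries and in neither labelled wild type. Its fold enrichments were 3.33, 8.18, 5.20 and 3.02. The YAP1 peak of wild type replicate 1, chr11:102111285-102111527, ended shortly before it. In the SOX2 set the wild-type peak, chr11:102109815-102112287, overlapped it, and the fusion peak, chr11:102111144-102112627, covered it. With SOX2 the YAP1 promoter entry failed the IDR, its 2 inputs having −log10 p values of 21.1 and 4.79.

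Among the genes that act on YAP, LATS2 had a promoter peak in all lists but wild type replicate 1. Its percentile was 41.8 in wild type replicate 2, a short list, and from 67.5 to 97.1 in the other lists. Its fold enrichment was 5.61 in wild type replicate 2, 6.54 and 7.84 with full-length FOXA2, and 4.34 and 6.06 with the CTD deletion. AJUBA had no promoter peak in the 3 wild-type lists and none in full-length replicate 1. Its promoter region chr14:22982331-22982937 had fold enrichments of 4.77 in full-length replicate 2, 4.42 and 3.94 with the CTD deletion, and passed with a −log10 p of 14.4 with SOX2 and 6.93 with the fusion. The nearest peaks in full-length replicate 1 and in the wild type of the SOX2 set lay 1.31 and 1.22 kb from the AJUBA start. An entry at the promoter in the wild type of the SOX2 set failed at an IDR of 0.288.

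AMOTL2, both a binding partner and a target of YAP, had a promoter peak in all SOX2-set lists but that of the fusion. Its promoter region, chr3:134373508-134375344, had a −log10 p of 33.5 in wild type and 37.6 with SOX2 (percentiles 94.0 and 96.6). With the fusion only an entry at an IDR of 0.511 was found there, its inputs having −log10 p values of 2.29 and 3.92. Both inputs were thus low with the fusion and high in the other lists. In the FOXA2 set the promoter had no peak in wild type replicate 1, a fold enrichment of 6.86 in wild type replicate 2, 3.68 and 9.89 with full-length FOXA2, and 3.51 and 3.92 with the CTD deletion.

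ANKRD1, the other YAP target, had the highest median rank of the 10 promoters. Its fold enrichments were 6.16 and 11.9 in the libraries labelled wild type, 5.98 and 10.6 with full-length FOXA2, and 5.94 and 6.16 with the CTD deletion. Its −log10 p was 33.4 in the wild type of the SOX2 set, 16.6 with SOX2 and 21.3 with the fusion. The percentile stayed between 70.8 and 96.2 over the 9 lists, with a median of 93.6. No list stood apart by the absence of this peak, and the ranges of the constructs and the libraries labelled wild type overlapped.

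Peak density at the 10 loci lay on either side of the level over all genes. The peaks numbered 20 and 19 in the lists labelled wild type, 111 and 42 with full-length FOXA2, 60 and 108 with the CTD deletion, and 54, 55 and 59 in the wild type, SOX2 and fusion lists. The median over the 10 genes ranged from 0.686 peaks per 100 kb in wild type replicate 2, where the median over all genes was 0.897, to 5.71 in full-length replicate 1, where it was 6.26. It was above the median over all genes in wild type replicate 1 (0.962 against 0.927) and in the 3 lists of the SOX2 set, and below it in the other 5 lists. AMOTL2 stood high in every list, between the percentiles 90.0 and 99.5 of all genes. LATS2 lay between 7.96 and 45.9 and TEAD2 between 9.97 and 45.4. The median percentile over the lists was 31.4 for LATS2, and lower for TEAD2 (30.9), TEAD1 (29.4), YAP1 (26.8) and TEAD3 (19.9).

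**Figure D2:**
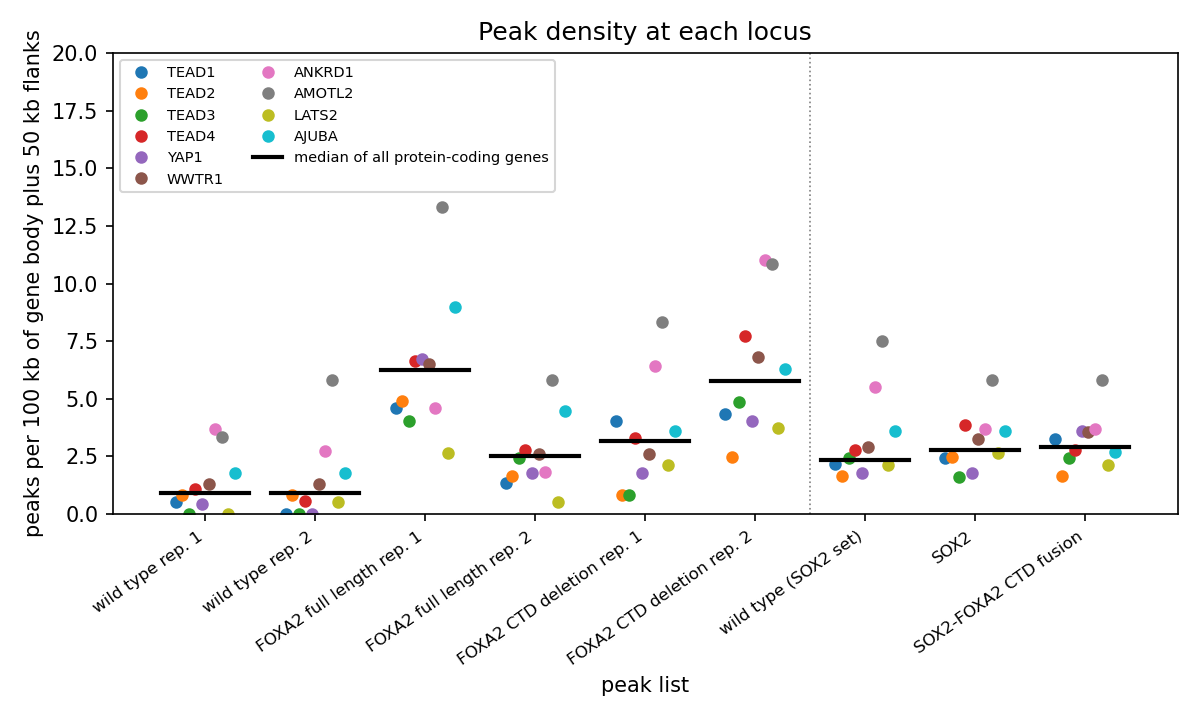
Peaks per 100 kb of gene body plus flanks for the 10 genes (points) in each of 9 lists, with the median over all 19974 protein-coding genes (black bars). AMOTL2 lies above the bar in every list, and the points rise and fall with the bars, from 20 peaks in all in wild type replicate 1 to 111 in full-length replicate 1.

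Merging the peaks of all 9 lists gave 7 regions at the 10 loci that were called in every list, 3.48% of the 201 against 2.08% of all regions. Of these, 4 lay within 1 kb of a start site of ANKRD1, WWTR1, TEAD4 or TEAD2. The TEAD2 region is the one at DKKL1 described above, and its peaks came within 1 kb of TEAD2 in 6 lists only. The other 3 were distal, with no protein-coding start site within 1 kb. The region chr14:23006634-23007533, in C14orf93 and 24.5 kb upstream of AJUBA, ranged from percentile 11.7 to 96.9, with a median of 85.6. The region chr3:149575443-149576954, inside WWTR1 and 149 kb from its 5′ end, kept to between 73.5 and 89.9 and was the most even of the 7. The region chr3:134326723-134328815, 47.6 kb downstream of the AMOTL2 5′ end and past the gene, ranged from 9.55 to 85.7. By contrast, 117 of the 201 regions (58.2%, against 61.5% of all) were called in a single list.

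The question put by the full-length FOXA2 libraries is which regions open when it is expressed. Gained regions are those with a peak in both construct libraries but none in the pair labelled wild type, and lost regions the reverse. At the 10 loci 15 of 187 regions were gained (8.02%) and 0 lost. Over all regions 9.06% were gained and 0.155% lost, and over the regions in the windows of all protein-coding genes (gene windows) 9.66% and 0.159%. The share at these genes was thus close to both. No test was made, and an exact permutation of 2 libraries against 2 cannot give a p below 0.33.

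TEAD1 held 4 of the 15 gained regions, YAP1 3, TEAD3, TEAD4 and WWTR1 2 each, AMOTL2 and AJUBA 1 each, and TEAD2, LATS2 and ANKRD1 held 0. The loci differed in their number of regions, from 7 at TEAD2 to 33 at TEAD1 and 35 at WWTR1. The highest ranked were the TEAD1 promoter, a WWTR1 region at chr3:149701965-149702587, and chr11:12973748-12974475, 299.7 kb from the TEAD1 5′ end. The WWTR1 region does not hold the forkhead match named above, which lies outside it. Its fold enrichments were 4.04 and 7.84 with full-length FOXA2 and 3.45 and 3.51 with the CTD deletion. It had no passing peak in any list of the SOX2 set. The TEAD1 region past the gene had fold enrichments of 4.42 and 7.84 with full-length FOXA2, and 4.44 and 3.51 with the CTD deletion. It too was absent from the SOX2 set.

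The gained regions were mostly of middling rank. Their median percentile was 62.8 in full-length replicate 1 and 33.1 in replicate 2, against 78.1 and 47.7 for all gained regions. Of the 15, 8 were distal (53.3%, against 91.0% of all gained regions and 87.1% of those in gene windows). Of all 187 regions at the 10 loci 86.6% were distal. Of the other gained regions, 3 were promoters of the 10 genes and 4 of neighbouring genes, TM4SF4, FANCE, RPL10A and HAUS4. In the wild type of the SOX2 set 7 of the 15 had a passing peak, against 20.9% of all gained regions. With that list as the control, 10 of 181 regions were gained (5.52%) and 15 lost (8.29%), against 9.33% and 6.21% of all regions.

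With the CTD deletion, 21 of 187 regions were gained (11.2%) and 0 lost, against 8.72% and 0.0576% of all regions and 8.98% and 0.0546% of those in gene windows. TEAD1 held 6 of them, YAP1, WWTR1 and ANKRD1 3 each, TEAD4 and AJUBA 2 each, AMOTL2 and LATS2 1 each, and TEAD2 and TEAD3 held 0. The highest ranked were chr12:2934976-2935696, 24.1 kb upstream of TEAD4, with fold enrichments of 5.60 and 4.89, the TEAD1 promoter, and the AJUBA promoter. The TEAD4 region also had a peak in full-length replicate 1, of 4.09-fold enrichment, and none in any list of the SOX2 set. Of the 21 regions, 10 had a passing peak in the wild type of the SOX2 set, against 26.4% of all such regions. With that list as the control, 12 of 181 were gained (6.63%) and 10 lost (5.52%), against 8.50% and 4.32% of all regions.

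The FOXA2 constructs were then set side by side. They share the libraries labelled wild type, so the gains of both rest on the same absences. CTD deletion replicate 1 had a peak at 9 of the 15 full-length gains and replicate 2 at 13, against 53.8% and 75.4% of such gains over all regions. Compared directly, 3 regions had a peak in both full-length libraries and in neither CTD deletion library (1.60%, against 1.82% of all regions and 1.91% of those in gene windows), and 6 the reverse (3.21%, against 2.36% and 2.31%).

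The 3 were chr3:149554836-149555382 inside WWTR1, chr11:102279435-102279850 beyond YAP1 and chr3:134410690-134411069 upstream of AMOTL2. Among the 6, the highest ranked were chr3:149738826-149739391, 14.3 kb upstream of WWTR1, at percentiles 63.9 and 61.5, and chr10:90885115-90885614, downstream of ANKRD1, at 49.3 and 51.5. The 3 ranged from percentile 38.3 to 80.4 in full-length replicate 1 and from 16.4 to 53.6 in replicate 2. The 6 ranged from 22.5 to 63.9 in CTD deletion replicate 1 and from 15.6 to 61.5 in replicate 2. The region inside WWTR1 also had a peak in wild type replicate 2, with SOX2 and with the fusion.

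The FOXA2-set counts changed with the length of the lists. With every list limited to its 19862 strongest peaks, 36 regions remained at the 10 loci. Of these, 0 were gained and 4 lost (11.1%) with full-length FOXA2, and 1 was gained (2.78%) and 2 lost (5.56%) with the CTD deletion. Losses thus outnumbered gains at the 10 loci, but on few regions. Over all regions gains still exceeded losses, at 7.52% against 4.35% with full length and 5.73% against 3.34% with the deletion. At a common −log10 p of at least 5.43, 59 regions remained at the 10 loci, of which 3 were gained and 0 lost with full-length FOXA2, against 15.1% and 0.994% of all regions. With the CTD deletion 2 were gained and 1 lost, against 7.63% and 0.982%. Without full-length replicate 2, 88 of 185 regions were gained with full-length FOXA2 (47.6%, against 49.0% of all regions). Without CTD deletion replicate 1, 85 of 179 were gained with the CTD deletion (47.5%, against 46.4%).

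**Figure D3:**
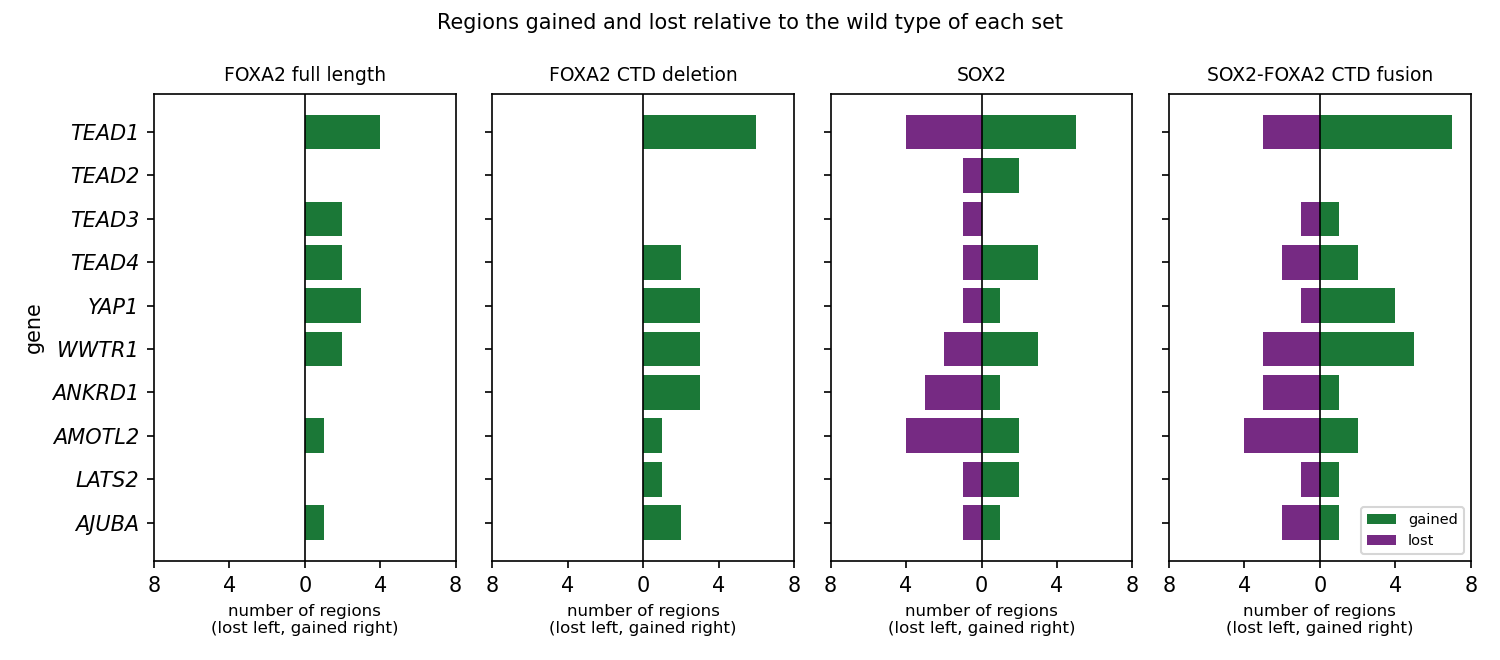
Number of regions gained (green, right) and lost (purple, left) at each gene with each of 4 constructs, relative to the wild type of its set, with all peaks of each list. No region was lost with a FOXA2 construct, TEAD1 has the longest gained bar in each panel, and AMOTL2 has 4 lost regions with SOX2 and 4 with the fusion. Bars are counts, not divided by the regions at a locus. TEAD1 held 33 regions of the FOXA2 set and 15 of the SOX2 set, and AMOTL2 21 and 11. Over all regions 0.155% were lost with full-length FOXA2 and 0.0576% with the CTD deletion.

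In the SOX2 set gained regions are those that passed with a construct but not in wild type, and lost regions the reverse. There is 1 list per group, so no spread between replicates can be given. With SOX2, 20 of 83 regions were gained (24.1%, Wilson 95% interval 16.2 to 34.3) and 19 lost (22.9%, 15.2 to 33.0), while over all regions 33.9% were gained and 17.0% lost, and over gene windows 30.9% and 17.8%. The intervals cover counting error only and were not set against the shares of all regions, since regions of a locus share their source. With 48142 peaks taken from each list there were 13 gains and 24 losses, against 27.5% and 27.4% of all regions.

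Of the regions gained with SOX2, TEAD1 held 5, TEAD4 and WWTR1 3 each, TEAD2, AMOTL2 and LATS2 2 each, YAP1, ANKRD1 and AJUBA 1 each, and TEAD3 held 0. The loci held from 4 regions of the SOX2 set (TEAD2 and TEAD3) to 14 (WWTR1) and 15 (TEAD1). The highest ranked was chr11:12641672-12642569, 32.3 kb upstream of TEAD1, with a −log10 p of 17.0 with SOX2 and 11.1 with the fusion, and no entry at any IDR in wild type. It had no peak in any FOXA2-set list. Next came chr11:12723973-12725116, 50.1 kb into TEAD1, with 15.2 with SOX2 and 12.3 with the fusion, where the wild-type entry missed the limit at an IDR of 0.0539, and then the AJUBA promoter. This intragenic TEAD1 site was also called in all 4 FOXA2-construct libraries and in neither library labelled wild type.

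Of the 19 regions lost with SOX2, the 3 with the highest rank in wild type lay at AMOTL2 and ANKRD1. The other 4 lost there ranked between the percentiles 35.2 and 51.0. The strongest was chr3:134363659-134365067, 11.1 kb into AMOTL2, with a −log10 p of 39.8 in wild type (percentile 97.0) and 13.9 with the fusion. With SOX2 its entry failed at an IDR of 0.351, with inputs of 3.70 and 19.3, so that 1 input still held a strong peak. It was called in all 6 lists of the FOXA2 set. The second, chr10:90930054-90931678, 9.78 kb upstream of ANKRD1, had 26.0 in wild type, and its inputs were 6.16 and 11.3 with SOX2 and 4.93 and 9.17 with the fusion.

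The third, chr3:134326723-134327935, 48.1 kb from the AMOTL2 5′ end, had 24.0 in wild type and no entry with SOX2. It adjoins a peak that was called with both SOX2 constructs, and when all 9 lists were merged the pair formed the AMOTL2 region called in every list. The lost region is therefore part of a stretch that was called in every list.

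With the fusion, 24 of 83 regions were gained (28.9%, interval 20.3 to 39.4) and 20 lost (24.1%, 16.2 to 34.3), against 43.7% and 17.1% of all regions and 39.4% and 18.3% of those in gene windows. With lists of equal length there were 13 gains (18.8% of 69) and 25 losses (36.2%), against 31.1% and 31.1% of all regions. TEAD1 held 7 of the gained regions, WWTR1 5, YAP1 4, AMOTL2 and TEAD4 2 each, TEAD3, ANKRD1, LATS2 and AJUBA 1 each, and TEAD2 held 0.

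Highest in rank among the fusion gains was chr3:134333523-134334191, 41.6 kb from the AMOTL2 5′ end, at percentile 89.7 with the fusion and 57.4 with SOX2, and a wild-type entry at an IDR of 0.0576. The sites 50.1 and 144 kb into TEAD1 followed, with 12.3 and 11.7. Among the losses the AMOTL2 promoter ranked highest, followed by chr14:22928962-22930886 at the promoter of PRMT5, near AJUBA, and chr10:90871260-90872669 at the promoter of RPP30, near ANKRD1. Their wild-type values were 33.5, 30.7 and 30.4. The fusion inputs were 5.31 and 24.0 at PRMT5 and 15.1 and 2.82 at RPP30, so that at each of these 1 input was high and the other low, whereas at AMOTL2 both were low.

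**Figure D4:**
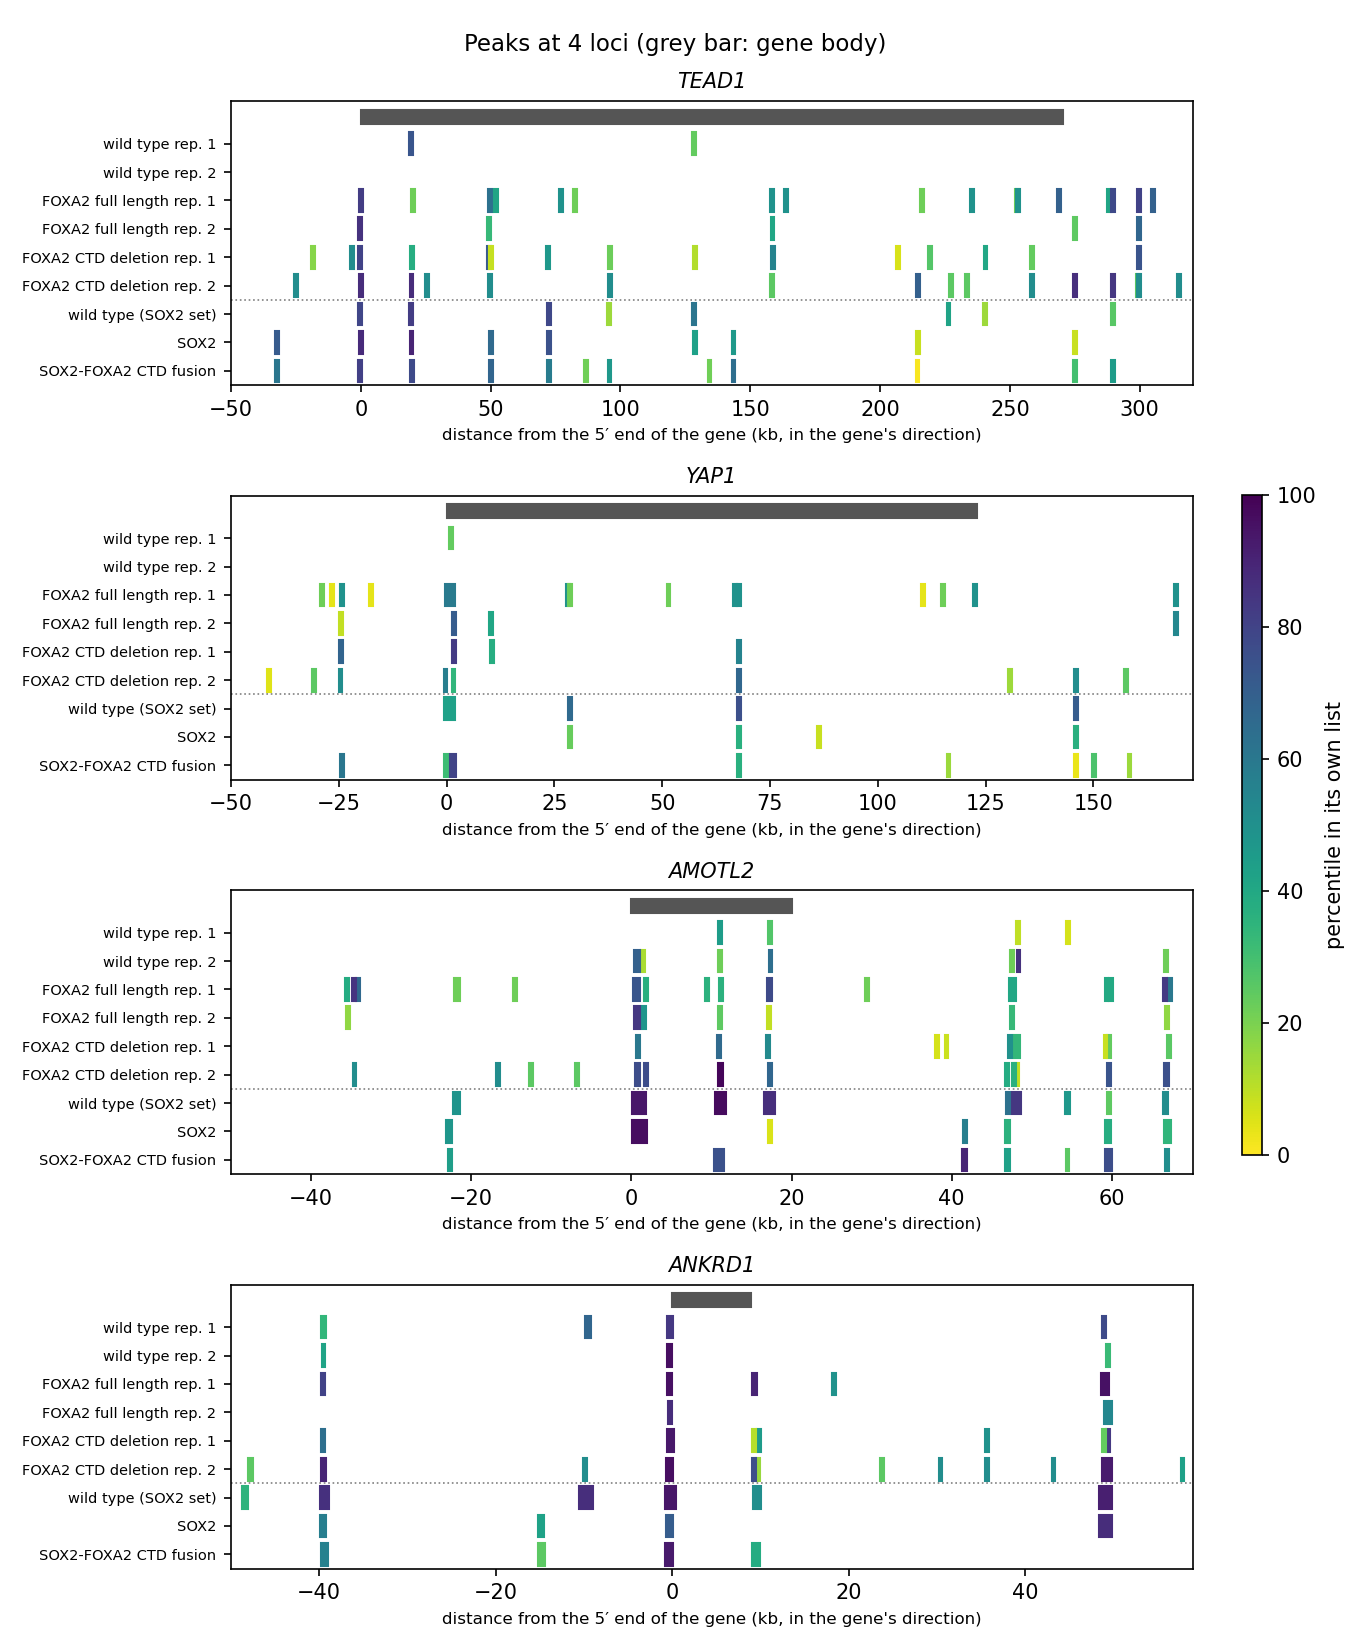
Peaks at TEAD1, YAP1, AMOTL2 and ANKRD1 in 9 lists (rows; dotted line between the sets), by distance in kb from the gene's 5′ end in the direction of the gene; colour is the percentile in the peak's own list and the narrowest bars are drawn wider than to scale. The AMOTL2 row of the fusion has no bar at the start, the AMOTL2 row of SOX2 none at 11.1 kb, and the 2 rows labelled wild type of the FOXA2 set none at the TEAD1 start.

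At most lost regions an entry remained in the list of the construct. Of the 19 regions lost with SOX2, 14 had an entry that failed the IDR, and of the 20 lost with the fusion, 17 did, against 65.8% and 75.0% of all lost regions. Counting a region as absent only if it had no entry at all left 5 lost with SOX2 and 3 with the fusion (6.02% and 3.61%, against 5.80% and 4.28% of all regions). It left 10 and 11 of 83 gained, against 21.2% and 31.4% of all regions. SOX2 and the fusion share the wild-type list. Of the 20 regions gained with SOX2, 15 passed with the fusion (75.0%, interval 53.1 to 88.8), against 71.3% of such gains over all regions.

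Compared directly, 13 regions passed with SOX2 and not with the fusion (15.7%, against 14.7% of all regions and 14.8% of those in gene windows) and 16 the reverse (19.3%, against 24.3% and 22.7%). Only 1 of each had no entry at any IDR in the other list. The AMOTL2 promoter led the first group, and the YAP1 promoter region chr11:102109815-102112627 led the second, with a −log10 p of 15.2 with the fusion and 11.3 in wild type.

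**Figure D5:**
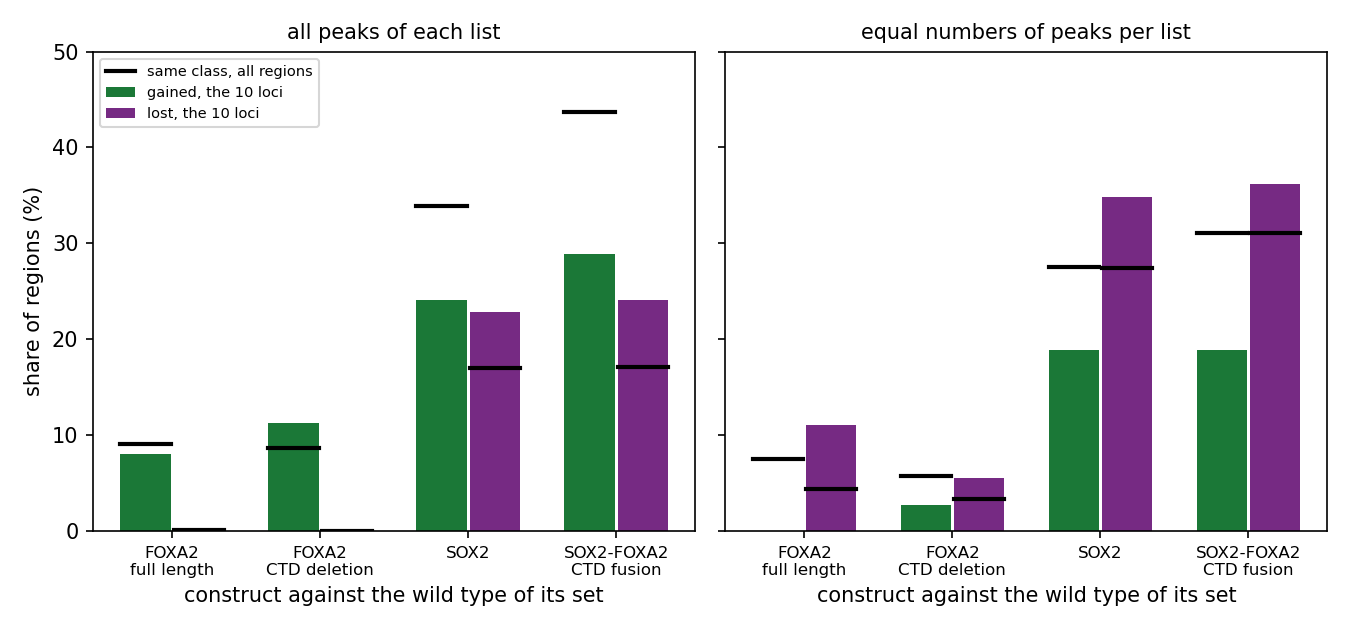
Share of regions gained (green) and lost (purple) at the 10 loci with each construct, with the same share over all regions (black lines), using all peaks of each list (left) or equal numbers of peaks per list (right). At equal numbers the lost bars exceed the gained bars for all 4 constructs. They run from 0 gained and 4 lost of 36 regions with full-length FOXA2 to 13 gained and 25 lost of 69 with the fusion. Over all regions the gained share stays above the lost share with both FOXA2 constructs.

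By role, the 4 TEAD genes held 8 regions gained with each FOXA2 construct out of 72, where 9.06% and 8.72% of all regions were gained with full length and deletion. In the SOX2 set they held 10 gained and 7 lost with SOX2 and 10 gained and 6 lost with the fusion, out of 31. Over all regions these shares were 33.9% gained and 17.0% lost with SOX2, and 43.7% and 17.1% with the fusion. The coactivators YAP1 and WWTR1 held 5 and 6 gained with the FOXA2 constructs out of 58, and out of 23 they held 4 gained and 3 lost with SOX2 and 9 gained and 4 lost with the fusion. LATS2, AJUBA and AMOTL2 held 2 and 4 gained out of 44, and out of 22 they held 5 gained and 6 lost with SOX2 and 4 gained and 7 lost with the fusion. ANKRD1 held 0 and 3 gained out of 13, and 1 gained and 3 lost with each SOX2 construct out of 7. No group lost a region with a FOXA2 construct, where 0.155% of all regions were lost with full length and 0.0576% with the deletion. Each group lost some with both SOX2 constructs. A loss is defined differently in the 2 sets, so these counts are not comparable between them.

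For the rest of the pathway, 37 other genes (core kinases and adaptors, YAP binding partners, TEAD cofactors of the VGLL family, and targets such as CCN1 and CCN2) were counted in the same way. Of the 29 with a start site in the table, 14 had a promoter peak in all 9 lists and 2 in none, against 24.0% and 23.0% of all genes. Their 855 FOXA2-set regions included 85 gained and 8 lost with full-length FOXA2 (9.94% and 0.936%) and 80 gained and 0 lost with the CTD deletion (9.36%). Over all regions 9.06% were gained and 0.155% lost with full length, and 8.72% and 0.0576% with the deletion. Their 412 SOX2-set regions included 133 gained and 101 lost with SOX2 (32.3% and 24.5%) and 150 gained and 89 lost with the fusion (36.4% and 21.6%). Over all regions the shares were 33.9% and 17.0% with SOX2, and 43.7% and 17.1% with the fusion. The lost shares in the SOX2 set were thus above those of all regions in this list as in the 10 genes, and no test was made of either. At equal numbers of peaks the 10 genes had 34.8% lost with SOX2 and 36.2% with the fusion, against 27.4% and 31.1%. Where absence meant no entry at any IDR they had 6.02% and 3.61%, against 5.80% and 4.28%.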

How the data were processed

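ATAC-seq peak lists of 12 U2OS samples in 6 groups were used: 1 list per sample in the FOXA2 set and 1 per group in the SOX2 set, 9 in all. The submitters' processing notes name Bowtie2 2.4.4, FastQC 0.10.1, Trim Galore, SAMtools 0.1.18, MACS2, deepTools 2.4.1 and the build hg38, without their roles. The authors' deposited fold enrichment (a ratio over each library's own background) and −log10 p rank peaks within a list only. The deposited −log10 q was not ranked on, and the deposited score restates −log10 q in wild type replicate 1 but −log10 p in the 5 remaining lists of the FOXA2 set. The authors' lists of the SOX2 set give −log10 p for 2 inputs per entry, taken to be the 2 samples of a group, and a deposited score that restates the global IDR. The −log10 p ranked on was the lower of the 2 at the regions of the 10 loci. The deposited summit positions served for summit windows.

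Peaks on chromosomes 1 to 22 and X were kept, in the SOX2 set at a global IDR of at most 0.05, and merged per set. A region was called in a list if a peak overlapped it by 1 bp. Start sites came from the RefSeq promoter table (GRCh38.p14) and each gene's 5′ end; TEAD1 and TEAD4 were read on the plus strand. Named were the promoter region of each gene, the 3 gained and 3 lost regions per comparison with the highest rank in the lists that carry them, and the 3 distal regions called in all 9 lists with the highest median rank; other regions were chosen after their values were seen. The genes and lists were chosen with earlier results of these data known. Depth is unknown, and no test was run, so p-values are not given; an exact permutation of 2 libraries against 2 cannot give a p below 0.33. The counting was tested on simulated data. Sequence of distal regions was not used here. Python 3.11.15 with pandas 2.3.3, numpy 2.4.6 and scipy 1.17.1 was used. Alternatives were equal numbers of peaks, a common −log10 p, other overlaps, flanks and IDR limits, another control, and leaving out libraries.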

Additional observations from a re-analysis of the deposited data

How the results depend on the processing

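Gained and lost counts at the 10 loci were recomputed under 135 alternatives over 15 results. Of these, 73 stayed within 1.5 times the reported count or, for the 2 shares, within a spread. For the FOXA2 share this was the standard deviation over the 2 CTD deletion libraries (18.9 points). For the SOX2 share it was the Wilson interval over 20 regions (53.1 to 88.8), which covers counting error only. The direct comparisons between constructs were added after seeing the data. For full-length FOXA2, gained regions (15 reported) were 0 at equal numbers of peaks, 3 at a common −log10 p, 9 where peaks had to cover 50% of a region, 8 with 10 kb flanks, 25 within the lists without mitochondrial peaks and 93 within those with them; lost regions (0 reported) were 4 at equal numbers, 15 with the wild type of the SOX2 set as control, and 2 and 5 within these same lists. For the CTD deletion, gained regions (21 reported) were 1 at equal numbers, 2 at the common −log10 p, 12 with 10 kb flanks and 12 with the other control; lost regions (0 reported) were 2, 1, 10 with the other control and 3 within the lists with mitochondrial peaks. Regions with full-length FOXA2 and not the CTD deletion (3 reported) were 0 at equal numbers, 1 with 10 kb flanks, 1 at the common −log10 p and 60 within the lists with mitochondrial peaks, and the reverse (6 reported) 1, 3 and 1 under the first 3 of these settings. The share of full-length gains called with the CTD deletion (mean of its libraries, 73.3%) was 27.4% within the lists with mitochondrial peaks, and had no value at equal numbers, where 0 were gained. Leaving out 1 library at a time gave from 14 to 88 gained and 0 to 5 lost with full-length FOXA2, 21 to 85 gained and 0 to 3 lost with the CTD deletion, 3 to 60 and 6 to 59 in the direct comparisons, and 24.4% to 86.7% for the share; the SOX2 set, with 1 list per group, allowed no such step. For SOX2, gained regions (20 reported) were 13 at equal numbers, 13 with 10 kb flanks, 13 at an IDR of 0.01, 42 with all entries and 10 where absence meant no entry; lost regions (19 reported) were 10 with 10 kb flanks, 35 with all entries and 5 where absence meant no entry. For the fusion, gained regions (24 reported) were 13 at equal numbers, 15 with 10 kb flanks, 57 with all entries and 11 where absence meant no entry; lost regions (20 reported) were 12 with 10 kb flanks and 3 where absence meant no entry. Regions with SOX2 and not the fusion (13 reported) were 1 where absence meant no entry, and the reverse (16 reported) 10 at equal numbers, 9 with 10 kb flanks, 37 with all entries and 1 where absence meant no entry. Genes with a promoter peak in all lists (3 reported) were 1 at equal numbers. The number of regions and the share over all regions moved with the settings too. The 25 full-length gains were of 44 regions (56.8%, against 61.0% of all regions). The 93 were of 184 (50.5%, against 52.7%), and the 60 were of 184 (32.6%, against 34.6%). With all entries 183 regions were counted. Over all regions SOX2 then gained 31.9% and lost 15.6%, and the fusion gained 43.3%. Narrower flanks and stricter limits leave fewer regions by construction, and otherwise the cause was not tested. No paired analysis was possible because the results are counts of listed peaks and come from no test. Read depth is unknown, so a peak missing from a short list is not shown to be closed chromatin.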
